A study of Mus musculus with 12 samples.

Results

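The genes of the MYC, MAX and MXD network were followed by RNA-Seq through IL-2 withdrawal and reactivation of mouse CD4 T blast cells (TB). The network was taken as 8 genes, chosen by gene name from the 24439 gene names in the deposited tables, namely *Myc*, *Mycn*, *Max*, *Mxd1*, *Mxd3*, *Mxd4*, *Mxi1* and *Mnt*, and all 8 passed the filter on low values among the 12442 genes tested. All 12 libraries were made from splenic CD4 T cells of C42 mice, a line on a C57BL/6J background that carries a fragment of the human IL3/CSF2 locus, and the age of the animals is not stated in the sources used here. The cells were activated with concanavalin A (ConA, 2 µg/ml) for 40 h and then expanded in IL-2 (50 U/ml), for about 2 days by the labels and for 30 h by the methods. Cells kept in IL-2 are called TB IL-2, and cells then left without IL-2 for 16 h are called TB IL-2nil. Both kinds of cells were also stimulated for 2 h with PMA (20 ng/ml) and the calcium ionophore A23187 (2 µM), together PMA/I, which stands in for T cell receptor signaling, and these are TB+ IL-2 and TB+ IL-2nil. There were 3 libraries in each of the 4 groups.

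Proteins of the MYC family are transcription factors that bind DNA only as a pair with MAX, and such pairs activate genes for cell growth, ribosome production and metabolism. The MXD proteins, MXI1 and MNT compete for MAX and, through SIN3 corepressors, repress genes at the same sites, so that the output depends on which partners are present. In T cells *Myc* is known to be induced by antigen receptor signals and maintained by IL-2, and it is required for the growth that precedes division.

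Levels are given as normalised TPM, in which transcript length is taken into account and every library is scaled to the same upper quartile. Differences are given on a log2(TPM + 1) scale from a limma fit of all 12 libraries, with P-values adjusted by Benjamini-Hochberg over the 12442 genes. The labels do not say that libraries of a group came from different animals, so these P-values measure only the spread between these samples. Read counts were not given, but the steps between low values put the relative depth of the libraries at 0.409 to 1.25, with TB IL-2nil replicate 2 the shallowest.

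Replicate 3 of TB IL-2nil and of TB+ IL-2 went against their labels. In the authors' list of differentially expressed genes, each of these 2 columns held the values of the library that carries the other label. The columns were compared with the libraries as quantile-normalized TPM of the genes tested, the scale of those tried that met them best. The methods name upper quartile normalization, which is used below, with quantile normalization as an alternative. Over 1378 genes of that list, with the network genes left out, 99.7% and 100% of the values in the 2 columns were met within 0.1%. They were met by the library of the other label, and no second library met more than 1.45% of any column. *Il2*, which PMA/I induces, was at 3539 TPM in the library labelled TB IL-2nil replicate 3 and at 0.997 TPM in the library labelled TB+ IL-2 replicate 3. The 2 libraries were therefore placed in each other's group, and TB IL-2nil replicate 3 and TB+ IL-2 replicate 3 refer below to the placed libraries. For the network genes, the related genes of the extended network, *Pvt1* and the counts of genes in each list of targets, results are also given with all libraries as labelled and without both.

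With this placement *Il2* was between 0 and 4.17 TPM in the 6 unstimulated libraries and between 3539 and 8949 TPM in the 6 stimulated libraries. *Cish*, a direct target of IL-2 signaling through STAT5, was at 167 ± 27.4 TPM (SD, n = 3) in TB IL-2 and at 15.2 ± 9.98 TPM (SD, n = 3) in TB IL-2nil. After PMA/I *Cish* was high with and without added IL-2, at 294 ± 67.2 and 538 ± 115 TPM (SD, n = 3 each). *Cd3e*, a subunit of the T cell receptor complex, passed no test and lay between 275 and 479 TPM in the 12 libraries.

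The classic binding site of these dimers is the E-box CACGTG, and 3 network genes held it close to their own start. Windows of 300 bases that span a RefSeq transcription start (table build GRCm38.p6) were given for 7 of the 8 network genes, with 9 windows in all, and were searched on both strands. The E-box was present in 1 window each of *Mxd4*, *Mnt* and *Max*, while 7.15% of all 32851 windows held it. These windows are shown because *Mxd4* and *Mnt* are antagonists that changed with IL-2 and *Max* is the shared partner, with the E-box in capitals, 5′ to 3′ on the strand of the gene.
*Mxd4*, mm9 chr5:34530310-34530609, minus strand: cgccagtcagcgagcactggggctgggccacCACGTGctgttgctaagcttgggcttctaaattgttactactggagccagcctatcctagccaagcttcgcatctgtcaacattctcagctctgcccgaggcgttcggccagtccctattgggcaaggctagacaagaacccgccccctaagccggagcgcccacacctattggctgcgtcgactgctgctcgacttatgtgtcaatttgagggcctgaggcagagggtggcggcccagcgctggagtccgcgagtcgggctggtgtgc
*Mnt*, mm9 chr11:74644176-74644475, plus strand: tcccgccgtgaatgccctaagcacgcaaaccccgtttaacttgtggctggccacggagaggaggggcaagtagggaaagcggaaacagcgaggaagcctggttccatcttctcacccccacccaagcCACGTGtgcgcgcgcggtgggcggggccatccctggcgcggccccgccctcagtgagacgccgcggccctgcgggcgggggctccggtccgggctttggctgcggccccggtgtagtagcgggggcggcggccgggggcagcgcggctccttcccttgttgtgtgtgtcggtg
*Max*, mm9 chr12:78063186-78063485, minus strand: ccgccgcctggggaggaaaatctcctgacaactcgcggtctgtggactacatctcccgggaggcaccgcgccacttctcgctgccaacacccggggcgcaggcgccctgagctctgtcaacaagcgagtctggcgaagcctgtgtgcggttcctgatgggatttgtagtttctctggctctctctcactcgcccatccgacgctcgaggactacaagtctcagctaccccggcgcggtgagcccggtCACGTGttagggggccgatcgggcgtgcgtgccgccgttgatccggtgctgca
The positions are those of the only exact match of each window on its chromosome in mm9, the build of the deposited data. Counted from the first base of the window, the E-box lay at bases 32 to 37 in *Mxd4*, 128 to 133 in *Mnt* and 248 to 253 in *Max*. The letters TTCNNNGAA of a STAT site and TGANTCA of an AP-1 site were in none of the 9 windows, and in 8.30% and 7.81% of all windows. A match is a description of the letters and not a measured binding site.

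*Myc* gave the widest range of the network and was lowest after IL-2 withdrawal. Its gene model spans chr15:61816946-61821929 (plus strand), in mm9 coordinates of GENCODE M1 as for all genes below. *Myc* was at 40.2, 170.3 and 180.3 TPM in the 3 TB IL-2 libraries and at 14.8, 14.4 and 29.2 TPM in the 3 TB IL-2nil libraries. In the stimulated groups it was at 757, 697 and 574 TPM in TB+ IL-2 and at 1665, 1465 and 1680.0 TPM in TB+ IL-2nil. No 2 groups overlapped, and the order was TB IL-2nil, TB IL-2, TB+ IL-2 and TB+ IL-2nil from low to high. TB IL-2 replicate 1 was well below the other two libraries of its group but above all 3 TB IL-2nil libraries.

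**Figure D1:**
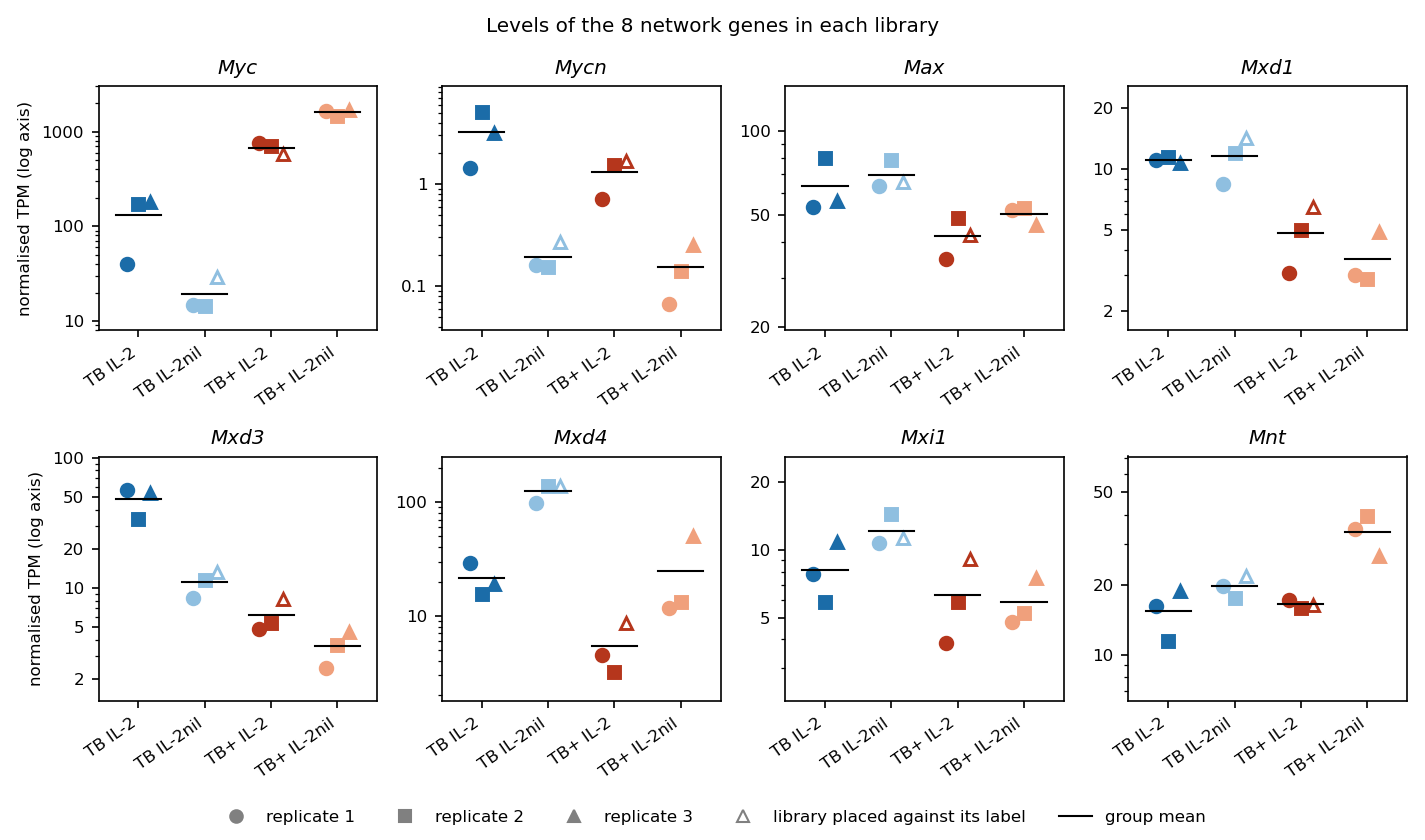
Level of each network gene in every library, as normalised TPM on a log axis, with 1 panel per gene and the 4 groups on the horizontal axis. Points are libraries, open triangles are the 2 libraries placed against their labels and bars are group means of 3 libraries. *Myc* spans 14.4 to 1680.0 TPM with no overlap between groups, *Mxd4* is highest in TB IL-2nil and *Mxd3* is highest in TB IL-2.

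Before PMA/I *Myc* was higher with IL-2, with group means of 130.2 and 19.5 TPM, a ratio of 6.69, and a log2 difference of 2.48 (SE = 0.48, adjusted P = 0.0025). PMA/I raised *Myc* 5.19-fold in cells kept in IL-2, from a mean of 130.2 to 676 TPM, with a log2 difference of 2.63 (SE = 0.48, adjusted P = 0.00188). In cells withdrawn from IL-2 it raised *Myc* 82.4-fold, to a mean of 1603 TPM, with a log2 difference of 6.36 (SE = 0.48, adjusted P = 2.53e-06). Whether the response to PMA/I depended on IL-2 was tested by the interaction, which was -3.73 (SE = 0.68, adjusted P = 0.0209). After PMA/I all 3 TB+ IL-2 libraries were lower than all 3 TB+ IL-2nil libraries, with a ratio of means of 2.37, but this difference of -1.25 did not pass the test (95% interval -2.31 to -0.19, adjusted P = 0.088). Fitted with these 2 groups alone it was -1.26 with an adjusted P of 0.00887. Cells withdrawn from IL-2 thus had the lowest mean *Myc* level of the 4 groups before PMA/I and the highest after it.

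With all libraries as labelled the *Myc* differences were 1.06 for IL-2 before PMA/I (adjusted P = 0.826), 1.21 for PMA/I with IL-2 (adjusted P = 0.767), 4.95 for PMA/I after withdrawal (adjusted P = 0.0708) and -3.73 for the interaction (adjusted P = 0.914). The estimate of the interaction is the same in both placements by construction. TB IL-2nil and TB+ IL-2 enter it with the same sign, so only its adjusted P can change. The library labelled TB IL-2nil replicate 3 was at 574 TPM, against 14.8 and 14.4 TPM in the others of that label. Without TB IL-2 replicate 1 the difference for IL-2 before PMA/I was 3.18 and that for PMA/I with IL-2 was 1.93 (adjusted P = 0.000143 and 0.000998). Without both misplaced libraries the differences were 2.80, 2.75 and 6.68 (adjusted P = 0.00577, 0.00553 and 3.54e-05), while the interaction was -3.93 and did not pass the test (adjusted P = 0.0751). The interaction also missed the threshold when 1 library was left out, with adjusted P of 0.0532 and 0.0502 without TB IL-2 replicate 2 or 3, 0.0613 without TB IL-2nil replicate 2, 0.0516 and 0.0565 without TB+ IL-2 replicate 2 or 3, and 0.0571 without TB+ IL-2nil replicate 1.

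*Mycn*, the paralog of *Myc* best known from the nervous system and its tumors, followed IL-2 at levels far below those of *Myc*. Its gene model spans chr12:12942902-12948720 (minus strand). *Mycn* was at 1.44, 5.07 and 3.19 TPM in TB IL-2, against 0.159, 0.154 and 0.268 TPM in TB IL-2nil. After PMA/I it was at 0.706, 1.52 and 1.69 TPM in TB+ IL-2, against 0.0664, 0.140 and 0.255 TPM in TB+ IL-2nil. The libraries with IL-2 did not overlap those without it, before or after PMA/I, while the 2 groups without IL-2 overlapped each other, as did the 2 groups with it.

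*Mycn* was higher with IL-2 before PMA/I by 1.73 (SE = 0.29, adjusted P = 0.00111) and after PMA/I by 0.97 (SE = 0.29, adjusted P = 0.0348). These sizes depend on the pseudocount, since with 0.1 TPM added in place of 1 they were 3.36 and 2.46 (adjusted P = 0.000853 and 0.00649). With IL-2 present PMA/I changed *Mycn* by -0.81 (adjusted P = 0.0492), a call lost without both misplaced libraries (-0.93, adjusted P = 0.0669), with the smaller pseudocount (-1.16, adjusted P = 0.0803), with no filter, with quantile normalization, with median-of-ratios scaling, with the groups compared alone (adjusted P = 0.109 to 0.258) and without any one of TB IL-2 replicates 2 and 3 and the 3 TB+ IL-2 libraries (adjusted P up to 0.173). Without TB IL-2 replicate 2 the value was -0.50. The difference after PMA/I was lost without both misplaced libraries (0.84, adjusted P = 0.151), and without TB+ IL-2 replicate 2 or 3 or any one TB+ IL-2nil library (adjusted P up to 0.124). *Mycn* and *Myc* showed little relation over the 12 libraries (Pearson r = 0.01 and Spearman rho = -0.17 on the log2 scale, as a description, since libraries of a group are not independent conditions).

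*Max*, the partner shared by the other members, had group means between 42.2 and 69.5 TPM. Its gene model spans chr12:78038256-78063235 (minus strand). Its levels were 53.6, 80.4 and 56.3 TPM in TB IL-2 and 63.6, 79.1 and 65.9 TPM in TB IL-2nil. After PMA/I they were 35, 49.0 and 42.7 TPM in TB+ IL-2 and 52.4, 52.9 and 46.3 TPM in TB+ IL-2nil. Both stimulated groups lay below their unstimulated counterparts with no overlap, while groups with and without IL-2 overlapped.

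With IL-2 *Max* fell by 0.57 on PMA/I (SE = 0.19, adjusted P = 0.0395). This call was lost without both misplaced libraries (-0.58, adjusted P = 0.0921), with no filter, with TPM not normalised further, with median-of-ratios scaling, with the groups compared alone (adjusted P = 0.0731 to 0.255) and without any one of TB IL-2 replicate 2, TB IL-2 replicate 3, TB+ IL-2 replicate 1 or TB+ IL-2 replicate 3 (adjusted P = 0.0557 to 0.143). After IL-2 withdrawal the difference was -0.45 (adjusted P = 0.0601), close to the median of -0.38 over all genes in that comparison, and with the replicate number as a block its adjusted P was 0.0158. IL-2 gave *Max* a difference of -0.15 before PMA/I (95% interval -0.57 to 0.27) and -0.26 after it (95% interval -0.68 to 0.16).

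*Mxd3*, an MXD repressor known for its expression in dividing cells, was highest in TB IL-2. Its gene model spans chr13:55426529-55431119 (minus strand). Its levels were 56.9, 33.8 and 53.6 TPM in TB IL-2 and 8.44, 11.6 and 13.3 TPM in TB IL-2nil. After PMA/I they were 4.83, 5.38 and 8.27 TPM in TB+ IL-2 and 2.45, 3.62 and 4.62 TPM in TB+ IL-2nil. All 4 groups were apart from each other, with every TB+ IL-2 library below every TB IL-2nil library by a narrow margin and every TB+ IL-2nil library lower still.

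*Mxd3* was 4.33-fold higher with IL-2 before PMA/I, with a log2 difference of 2.01 (SE = 0.27, adjusted P = 0.000362). On PMA/I it fell 7.80-fold with IL-2, by 2.77 on the log2 scale (SE = 0.27, adjusted P = 3.63e-05), and 3.11-fold after withdrawal, by 1.41 (SE = 0.27, adjusted P = 0.000955). The fall with IL-2 was the only difference of any network gene that passed the test with the libraries as labelled (-2.56, adjusted P = 0.0227). The interaction was -1.36 (adjusted P = 0.0713), and the difference with IL-2 after PMA/I was 0.65 (adjusted P = 0.113). With the replicate number as a block these had adjusted P of 0.0261 and 0.043.

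*Mxd4*, another MXD repressor, which is associated with cells that have left the cycle, showed the opposite pattern before PMA/I. Its gene model spans chr5:34516536-34530369 (minus strand). *Mxd4* was at 29.5, 15.6 and 19.0 TPM in TB IL-2 and at 97.9, 140.3 and 139 TPM in TB IL-2nil. On stimulation it was at 4.49, 3.22 and 8.65 TPM in TB+ IL-2 and at 11.6, 13.2 and 50.0 TPM in TB+ IL-2nil. TB IL-2nil stood above all other libraries and TB+ IL-2 below them, while TB IL-2 and TB+ IL-2nil overlapped. TB+ IL-2nil replicate 3 was far above the others of its group.

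*Mxd4* was 5.90-fold lower with IL-2 before PMA/I, with a log2 difference of -2.53 (SE = 0.49, adjusted P = 0.00251). On PMA/I it fell 3.91-fold with IL-2, by 1.83 on the log2 scale (SE = 0.49, adjusted P = 0.0145), and 5.05-fold after withdrawal, by 2.58 (SE = 0.49, adjusted P = 0.00091), a difference that was -3.23 without TB+ IL-2nil replicate 3. After PMA/I it was 4.57-fold lower with IL-2, with a log2 difference of -1.78 (SE = 0.49, adjusted P = 0.0261). Without TB+ IL-2nil replicate 3 this difference was -1.14 and under 3-fold, and the call was lost without TB+ IL-2 replicate 1 or 2 (adjusted P = 0.0646 and 0.0893), with the groups compared alone (-1.77, adjusted P = 0.0759) and with TPM not normalised further (-1.42, adjusted P = 0.136). The fall on PMA/I with IL-2 was lost without TB IL-2 replicate 1 (adjusted P = 0.0579) or TB+ IL-2 replicate 2 (adjusted P = 0.06).

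Markers of B cells had levels that moved with the groups in the same way as *Mxd4*. Of 5 such markers 4 were in the tables and passed the filter, and their summed level was 10.4, 10.4 and 5.94 TPM in TB IL-2 and 23.2, 29.6 and 23.5 TPM in TB IL-2nil. In the stimulated groups it was 3.31, 3.24 and 2.36 TPM in TB+ IL-2 and 7.49, 5.49 and 12.7 TPM in TB+ IL-2nil. *Cd79a* was the most abundant of them over the 12 libraries together. In TB IL-2nil *Cd79b* was above it, at 8.38, 15.1 and 9.48 TPM against 8.24, 7.75 and 9.04 TPM. For the summed level TB+ IL-2nil replicate 3 was the highest of its group, as it was for *Mxd4*. *Cd79b* and *Ms4a1* were lower in all 4 comparisons in which *Mxd4* was, but without both misplaced libraries neither passed the test for IL-2 after PMA/I (adjusted P = 0.121 and 0.183), nor did *Ms4a1* for PMA/I with IL-2 (adjusted P = 0.0551). The T cells had been selected from spleen with magnetic beads against CD4, which B cells lack. The part of B cells in the *Mxd4* result was not tested. In such bulk samples fewer cells of a type and less RNA per cell cannot be told apart.

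*Mxd1*, the first described MXD repressor and a gene of differentiating cells, passed no test for IL-2 but fell on PMA/I. Its gene model spans chr6:86597038-86619153 (minus strand). *Mxd1* was at 11.2, 11.6 and 10.7 TPM in TB IL-2 and at 8.48, 12.1 and 14.4 TPM in TB IL-2nil. After PMA/I it was at 3.07, 5.0 and 6.5 TPM in TB+ IL-2 and at 3.0, 2.88 and 4.88 TPM in TB+ IL-2nil. Stimulated and unstimulated libraries did not overlap, and groups that differed only in IL-2 did.

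*Mxd1* fell by 1.10 with IL-2 (SE = 0.26, adjusted P = 0.00731), a ratio of means of 2.29, and by 1.46 after withdrawal (SE = 0.26, adjusted P = 0.00053), a ratio of 3.25. Its differences with IL-2 were -0.03 before PMA/I (95% interval -0.60 to 0.53) and 0.34 after it (95% interval -0.23 to 0.90).

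*Mxi1*, a further repressor of the family, fell on PMA/I in cells withdrawn from IL-2. Its gene model spans chr19:53384996-53450300 (plus strand). *Mxi1* was at 7.78, 5.86 and 10.8 TPM in TB IL-2 and at 10.7, 14.4 and 11.2 TPM in TB IL-2nil. The stimulated libraries were at 3.85, 5.89 and 9.11 TPM in TB+ IL-2 and at 4.76, 5.26 and 7.49 TPM in TB+ IL-2nil. TB IL-2nil stood apart from both stimulated groups, and the other groups overlapped. The difference on PMA/I after withdrawal was -0.95 (SE = 0.28, adjusted P = 0.0132). It was lost with quantile normalization (-0.39, adjusted P = 0.234), with median-of-ratios scaling (-0.59, adjusted P = 0.0947) and with no filter (adjusted P = 0.0517).

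*Mnt*, the broadly expressed antagonist, was the only one of the 5 antagonists that rose on PMA/I. Its gene model spans chr11:74644422-74659227 (plus strand). *Mnt* was at 16.2, 11.4 and 18.8 TPM in TB IL-2 and at 19.9, 17.6 and 21.9 TPM in TB IL-2nil. After PMA/I it was at 17.2, 15.9 and 16.4 TPM in TB+ IL-2 and at 34.6, 39.6 and 26.6 TPM in TB+ IL-2nil. TB+ IL-2nil stood above all other libraries, and the other 3 groups lay close to each other.

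*Mnt* rose 1.70-fold on PMA/I after withdrawal, by 0.72 on the log2 scale (SE = 0.20, adjusted P = 0.00867), and after PMA/I it was 2.04-fold lower with IL-2, with a difference of -0.97 (SE = 0.20, adjusted P = 0.00705). Both calls were lost with TPM that were not normalised further (0.19 and -0.58, adjusted P = 0.642 and 0.316). With IL-2 present its difference on PMA/I was 0.11 (95% interval -0.33 to 0.55). The interaction for *Mnt* was -0.61 and did not pass the test (adjusted P = 0.225).

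**Figure D2:**
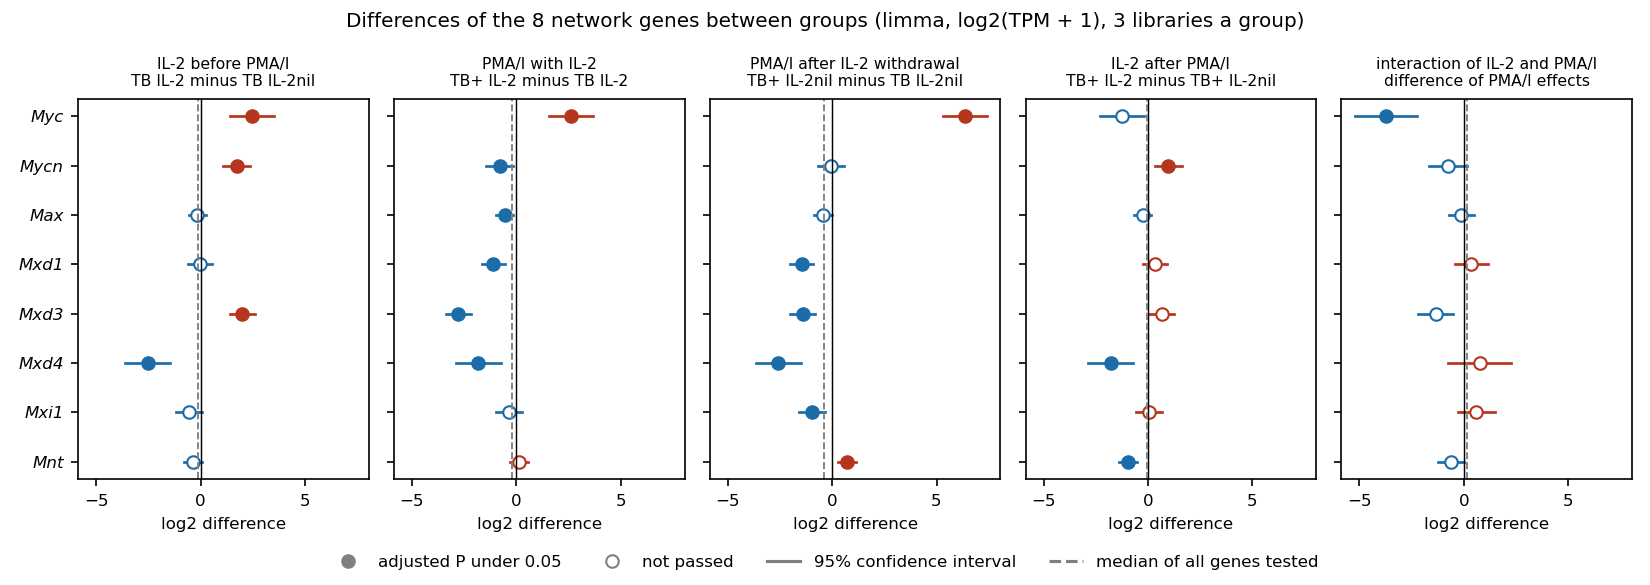
Log2 difference of each network gene, in log2(TPM + 1), in the 4 comparisons and for the interaction between IL-2 and PMA/I, with 1 panel each. Points are estimates from the fit of all 12 libraries, lines are 95% intervals, filled points have an adjusted P under 0.05 and the dashed line is the median of all genes. *Myc* reaches 6.36 on PMA/I after withdrawal, where *Mxd4*, *Mxd1*, *Mxd3* and *Mxi1* lie below the median of -0.38 and *Mnt* above it.

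The 4 comparisons share groups, so their counts are given side by side and not as separate evidence. Called at a change of over 3-fold together with an adjusted P below 0.05 were 4 of the 8 network genes for IL-2 before PMA/I (7.42% of all genes tested), 3 for PMA/I with IL-2 (7.04%), 2 for PMA/I after withdrawal (18.5%) and 1 for IL-2 after PMA/I (3.62%). At the adjusted P alone the counts were 4, 6, 6 and 3, against 39.6%, 35.1%, 61.2% and 21.3% of all genes. By direction, 3 were higher and 1 was lower with IL-2 before PMA/I (17.3% and 22.3% of all genes), 1 was higher and 5 were lower on PMA/I with IL-2 (11.8% and 23.3%), 2 were higher and 4 were lower on PMA/I after withdrawal (20.1% and 41.1%), and 1 was higher and 2 were lower with IL-2 after PMA/I (12.9% and 8.4%). For the interaction 1 network gene was called, a negative value, against 4.23% of all genes in either direction and 2.66% with a negative one. The groups did not overlap for 4, 5, 7 and 5 of the 8 network genes in the 4 comparisons, against 53.2%, 51.7%, 64.1% and 37.2% of all genes. For IL-2 before PMA/I *Myc*, *Mycn* and *Mxd3* were higher and *Mxd4* was lower, and PMA/I raised *Myc* and lowered *Mxd3*, *Mxd4* and *Mxd1* in both settings. Without both misplaced libraries the counts at over 3-fold were again 4, 3, 2 and 1, with 0 for the interaction (2 at an unadjusted P under 0.05). As labelled they were 0, 1, 0, 0 and 0 by limma, with 2, 2, 5, 2 and 1 network genes at an unadjusted P under 0.05.

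The median over all genes was -0.13 for IL-2 before PMA/I, -0.22 for PMA/I with IL-2, -0.38 for PMA/I after withdrawal and -0.04 for IL-2 after PMA/I, and it moved with the scaling. For PMA/I after withdrawal it was -0.78 with TPM not normalised further, -0.14 with quantile normalization and -0.08 with median-of-ratios scaling. For PMA/I with IL-2 these last 2 gave -0.10 and -0.03, and for IL-2 after PMA/I TPM not normalised further gave 0.23. For PMA/I after withdrawal the share of all genes called at more than 3-fold that were higher was 42.2%, and it was 20.1% with TPM not normalised further, 58.4% with quantile normalization and 63.9% with median-of-ratios scaling. For PMA/I with IL-2 it was 55.9%, and 69.9% and 71.8% with quantile normalization and median-of-ratios scaling. For the interaction, where genes were called at the adjusted P alone, the share that were higher was 37.1%, and 22.6% with median-of-ratios scaling. No network gene past the threshold changed direction with any scaling.

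The balance of *Myc* to its antagonists was compared within each library, so that a single scaling factor per library cannot alter it. The levels of the 5 antagonists were summed, as a description with no test. The ratio of *Myc* to this sum was 0.331, 2.18 and 1.6 in TB IL-2 and 0.102, 0.0734 and 0.146 in TB IL-2nil. It was 22.6, 19.7 and 11.7 in TB+ IL-2 and 29.5, 22.7 and 17.9 in TB+ IL-2nil. Antagonist transcripts thus exceeded *Myc* in TB IL-2nil and in TB IL-2 replicate 1, and *Myc* exceeded them in the other 8 libraries, with the 2 stimulated groups overlapping. The sum itself was 104 ± 22.9 TPM in TB IL-2, 181 ± 30.5 TPM in TB IL-2nil, 39.3 ± 8.45 TPM in TB+ IL-2 and 71.5 ± 19.6 TPM in TB+ IL-2nil (SD, n = 3 each).

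**Figure D3:**
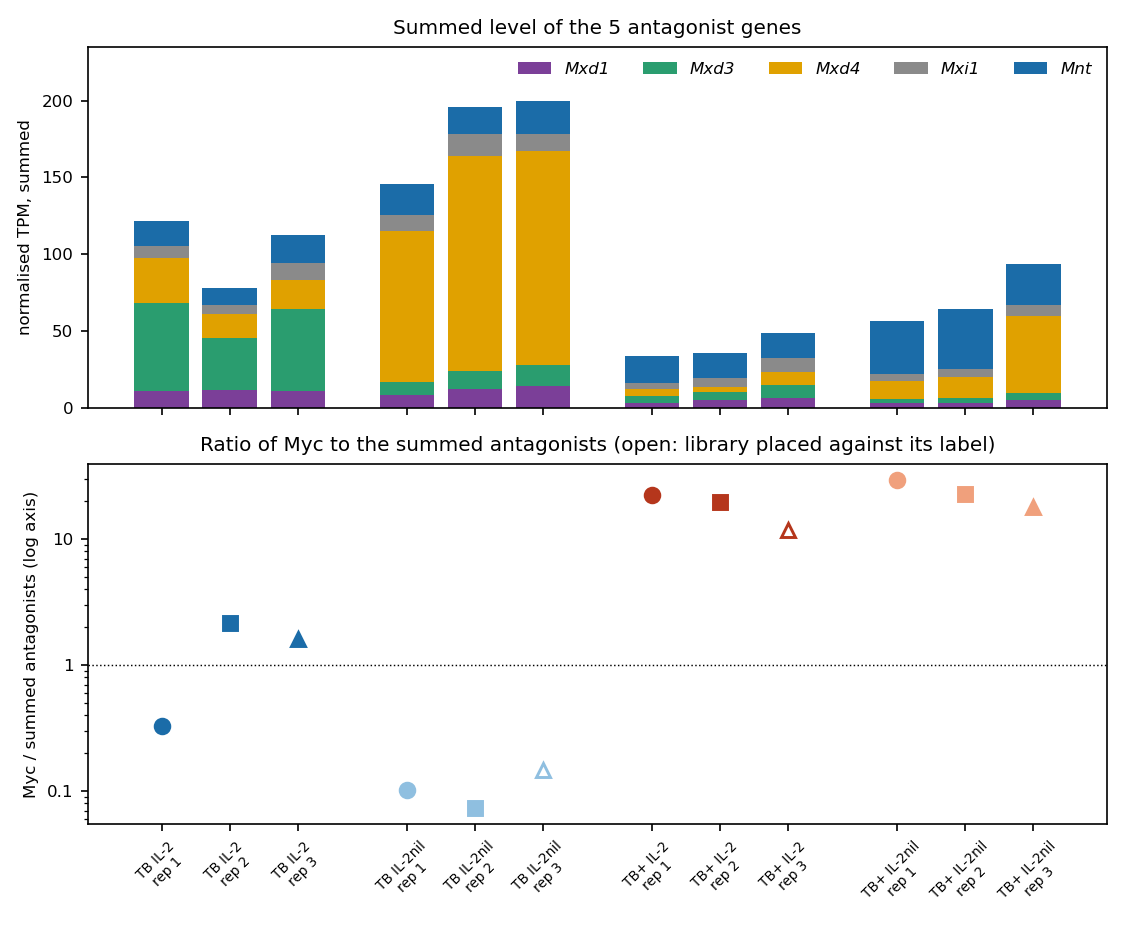
Composition of the antagonists (summed normalised TPM of *Mxd1*, *Mxd3*, *Mxd4*, *Mxi1* and *Mnt*, stacked from 0) and ratio of *Myc* to that sum (log axis) in each of the 12 libraries, in the order of the 4 groups. *Mxd4* makes up most of the sum in TB IL-2nil and *Mxd3* is its largest part in TB IL-2. The ratio runs from 0.0734 in TB IL-2nil to 29.5 in TB+ IL-2nil.

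The leading antagonist differed between the groups. *Mxd3* made up 45.8% ± 2.32 of the sum in TB IL-2 and *Mxd4* 69.5% ± 2.12 in TB IL-2nil (SD, n = 3 each). *Mnt* led in TB+ IL-2, at 43.3% ± 9.05 (SD, n = 3). In TB+ IL-2nil *Mnt* was at 61.3% and 61.4% in replicates 1 and 2 but at 28.4% in replicate 3, where *Mxd4* was at 53.4%. *Myc* was below *Max* in the 3 TB IL-2nil libraries (ratios of 0.233, 0.182 and 0.443) and in TB IL-2 replicate 1 (0.75), and 13.5 to 36.3 times *Max* in the stimulated libraries.

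The members also differed in which factor went with their spread over the 12 libraries. On the log2 scale PMA/I accounted for 79.9% of the sum of squares of *Myc*, 82.4% of that of *Mxd1* and 63.1% of that of *Mxd3*. IL-2 accounted for 71.9% of that of *Mycn* and 51.2% of that of *Mnt*. *Mxd4* divided between PMA/I (44.5%) and IL-2 (42.6%), and *Max* and *Mxi1* kept 29.99% and 39.5% within the groups. The interaction took 13.8% for *Myc*, the most of the 8 members, and IL-2 averaged over both settings took 1.5%. That average joins opposite directions. The ratio of mean *Myc* with IL-2 to that without it was 6.69 before PMA/I and 0.422 after it, where the difference did not pass the test.

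Genes that MYC is known to activate were examined as a list of 35, all of which passed the filter. Like all gene lists here, it was chosen with earlier results of these data known, so its counts are a description. Of these, 29 rose and 1 fell with IL-2 before PMA/I, with a median log2 difference of 1.64 against -0.13 for all genes. With IL-2 present 15 rose on PMA/I (median 0.81), and after withdrawal 31 rose and 2 fell (median 1.96 against -0.38 for all genes). After PMA/I 6 were higher with IL-2, with a median of -0.14 against -0.04 for all genes, and this median was 0.24 with TPM not normalised further and 0.0059 without both misplaced libraries. For the interaction 18 of the 35 were negative and past the test, with a median of -1.45 against 0.16 for all genes. The share of all genes past the test in the direction of the list was 17.3%, 11.8%, 20.1% and 12.9% in the 4 comparisons and 2.66% for negative interactions.

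**Figure D4:**
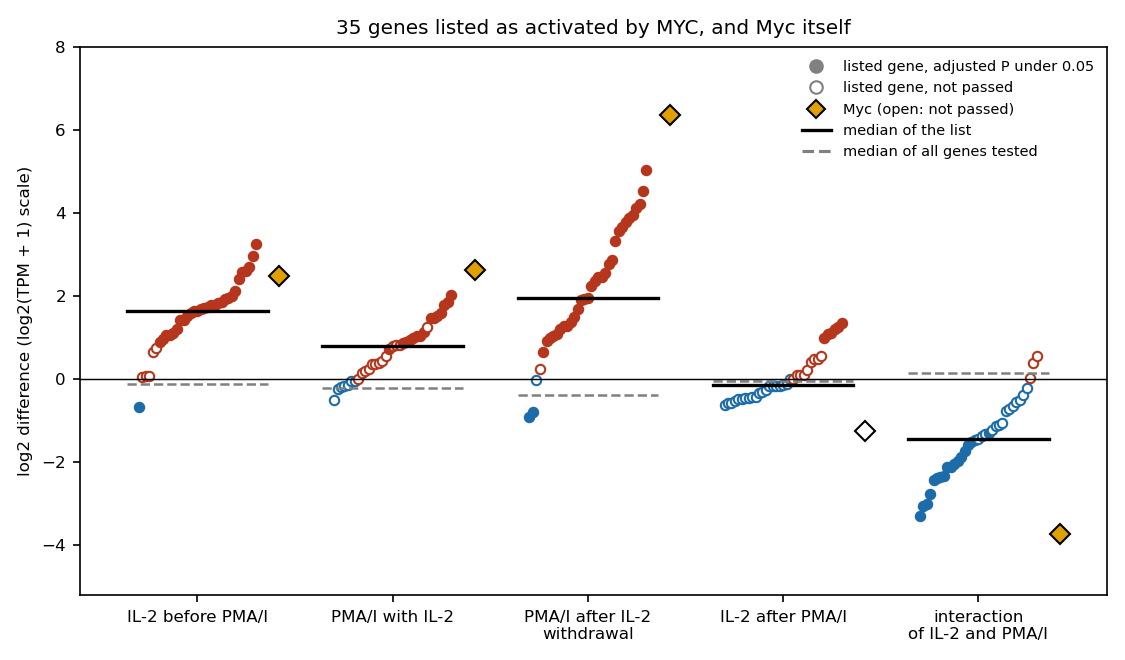
Log2 difference, in log2(TPM + 1), of the 35 genes listed as activated by MYC in the 4 comparisons and for the interaction. Points are genes, the black line is the median of the list, the dashed line is the median of all genes and the diamond is *Myc*. The list median is 1.64, 0.81, 1.96 and -0.14 in the 4 comparisons and -1.45 for the interaction.

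*Tfrc*, the transferrin receptor for iron uptake, had the largest difference with IL-2 before PMA/I, at 3.26 (SE = 0.33, adjusted P = 9.31e-05), from 16.7 ± 4.14 TPM in TB IL-2nil to 172 ± 54.4 TPM in TB IL-2 (SD, n = 3 each). *Srm*, which makes spermidine, and *Hk2*, the hexokinase that starts glycolysis, followed at 2.96 and 2.69 (adjusted P = 0.000694 and 0.000783). On PMA/I after withdrawal *Hk2* rose by 5.04 (SE = 0.42, adjusted P = 4.49e-06), from 1.98 ± 0.999 to 94.0 ± 16.3 TPM (SD, n = 3 each), *Srm* by 4.54 and *Gnl3*, a nucleolar GTPase of growing cells, by 4.23. On PMA/I with IL-2 the leaders were *Hk2* at 2.03, *Gnl3* at 1.86 and *Polr1b*, a subunit of RNA polymerase I, at 1.78 (adjusted P = 0.00378, 0.00154 and 0.00475).

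The genes that were higher with IL-2 after PMA/I were led by *Shmt2*, an enzyme of one-carbon metabolism, at 1.36 (adjusted P = 0.00497), *Cdk4*, a kinase of the G1 phase, at 1.25 (adjusted P = 0.00114) and *Ldha*, which makes lactate, at 1.21 (adjusted P = 0.00275). *Cdk4* was at 166 ± 14.8 TPM in TB IL-2, 52.5 ± 3.16 TPM in TB IL-2nil, 149 ± 8.87 TPM in TB+ IL-2 and 63.7 ± 17.3 TPM in TB+ IL-2nil (SD, n = 3 each), so its 2 stimulated groups kept the order of the unstimulated ones. *Srm*, *Tfrc* and *Hk2* had the largest interactions, at -3.29, -3.05 and -3.01 (adjusted P = 0.0253, 0.0125 and 0.0265). *Tert*, the catalytic subunit of telomerase, fell with IL-2 before PMA/I (-0.68), and *Tert* and *Tfam*, a factor of mitochondrial transcription, fell on PMA/I after withdrawal (-0.80 and -0.91), all 3 at an adjusted P under 0.05. The call of *Tert* with IL-2 before PMA/I was lost without both misplaced libraries and with a pseudocount of 0.1. It was also lost with TPM not normalised further and with quantile normalization. In each of these settings 0 genes of the list fell there by limma (1 at an unadjusted P under 0.05). With quantile normalization 1 gene of the list, against 2, fell on PMA/I after withdrawal. *Tert* and *Tfam* were named after their values were seen.

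As labelled, limma called 0 of the 35 in any comparison, with medians of 0.81, -0.04, 1.41 and -0.73, and 3, 0, 19 and 1 rose at an unadjusted P under 0.05. Without both misplaced libraries 29, 14, 29 and 4 rose, and 0 were called for the interaction, where the median was -1.32. The 18 negative interactions became 0 with TPM not normalised further, and ranged from 5 without TB+ IL-2 replicate 3 to 22 without TB+ IL-2nil replicate 3. They were 6 without TB IL-2 replicate 2, TB IL-2 replicate 3, TB IL-2nil replicate 2 or TB+ IL-2nil replicate 1, 7 without TB+ IL-2 replicate 2 or TB+ IL-2nil replicate 2, and 9 without TB+ IL-2 replicate 1. The 15 genes that rose on PMA/I with IL-2 were 9 without TB+ IL-2 replicate 2.

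Genes that MYC is known to repress, a list of 6 that all passed the filter, moved in both directions. *Cdkn1b*, which encodes the cell cycle inhibitor p27, was at 58.8 ± 19.8 TPM in TB IL-2, 207 ± 21.5 TPM in TB IL-2nil, 9.79 ± 1.89 TPM in TB+ IL-2 and 11.1 ± 5.88 TPM in TB+ IL-2nil (SD, n = 3 each). It was lower with IL-2 before PMA/I by 1.85 (adjusted P = 0.00355) and fell on PMA/I with IL-2 and after withdrawal (-2.43 and -4.26), while *Gadd45a*, a stress-induced gene, was lower with IL-2 before PMA/I (-1.28, adjusted P = 0.0347). The *Gadd45a* call was lost without both misplaced libraries (-1.02, adjusted P = 0.112), with no filter, quantile normalization, array weights or the groups compared alone (adjusted P = 0.0509 to 0.101), and without any one of TB IL-2 replicates 1 and 2 and TB IL-2nil replicates 1 and 3 (adjusted P = 0.0581 to 0.126). *Cdkn1a*, which encodes the inhibitor p21, rose on PMA/I by 1.99 with IL-2 and by 2.91 after withdrawal (adjusted P = 0.0165 and 0.000848), and *Ndrg1*, a stress-responsive gene, rose on PMA/I by 3.35 and 3.76. With IL-2 before PMA/I the *Cdkn1a* difference was 1.5 (adjusted P = 0.0496), with libraries at 44.6, 48.6 and 169 TPM from low to high in TB IL-2 and at 17.9, 19.1 and 43.7 TPM in TB IL-2nil. This was lost without both misplaced libraries (adjusted P = 0.156), with a pseudocount of 0.1, with no filter, with TPM not normalised further, with limma-trend, with the groups compared alone (adjusted P = 0.0584 to 0.113), and without any one of TB IL-2 replicates 1 and 2 and TB IL-2nil replicates 2 and 3 (adjusted P = 0.0528 to 0.169), and without TB IL-2 replicate 1 it was 0.88. The rise of *Cdkn1a* on PMA/I with IL-2 was lost with quantile normalization and without TB IL-2 replicate 2, TB IL-2 replicate 3 or TB+ IL-2 replicate 1 (adjusted P = 0.0529 to 0.0679).

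In all 1 gene of the 6 rose and 2 fell with IL-2 before PMA/I (17.3% and 22.3% of all genes), 2 rose and 1 fell on PMA/I with IL-2 (11.8% and 23.3%), 2 rose and 2 fell after withdrawal (20.1% and 41.1%), and 0 passed the test with IL-2 after PMA/I by limma (2 at an unadjusted P under 0.05). The median of the list was 0.52, -0.05, -0.12 and 0.57 in the 4 comparisons, against -0.13, -0.22, -0.38 and -0.04 for all genes, and for PMA/I it was above 0 with quantile normalization (0.27 and 0.41) and median-of-ratios scaling (0.12 and 0.15). With 1 library left out the median for IL-2 before PMA/I ran from 0.15 without TB IL-2 replicate 3 to 0.71 without TB IL-2 replicate 2, and was 0.31 without TB IL-2 replicate 1. The median for PMA/I with IL-2 then ran from -0.32 without TB IL-2 replicate 2 to 0.091 without TB IL-2 replicate 3 and for PMA/I after withdrawal from -0.23 without TB+ IL-2nil replicate 1 to 0.0057 without TB+ IL-2nil replicate 2, so neither had a fixed sign. With quantile normalization 3 rose and 1 fell with IL-2 before PMA/I. With the replicate number as a block 2 rose and 2 fell in that comparison, 2 rose and 2 fell on PMA/I with IL-2, 2 rose and 1 fell with IL-2 after PMA/I, and 2 were positive for the interaction, where 0 passed without the block (1 at an unadjusted P under 0.05). As labelled limma called 0 of the 6 in the 4 comparisons, with 0, 0, 2 and 1 at an unadjusted P under 0.05. Without both misplaced libraries 1 fell with IL-2 before PMA/I, *Cdkn1b*, 2 rose and 2 fell on PMA/I in each setting, and 0 passed with IL-2 after PMA/I (2 at an unadjusted P under 0.05).

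The extended network links MAX to the related partner MLX. *Mlxip*, a glucose-sensing partner of MLX, was at 18.5, 18.0 and 15.4 TPM in TB IL-2, 28.3, 25.1 and 25.1 TPM in TB IL-2nil, 68.3, 44.3 and 49.0 TPM in TB+ IL-2 and 90.5, 57.5 and 52.7 TPM in TB+ IL-2nil. It rose on PMA/I by 1.56 with IL-2 (SE = 0.22, adjusted P = 0.00042) and by 1.28 after withdrawal (SE = 0.22, adjusted P = 0.000483), with no overlap between stimulated and unstimulated libraries. *Mlx* itself fell on PMA/I after withdrawal by 0.93 (adjusted P = 0.00388), and after PMA/I it was higher with IL-2 by 0.88 (adjusted P = 0.0185), with means of 24.6 and 12.8 TPM. *Mga*, a large protein that pairs with MAX in a repressive complex, was lower with IL-2 before PMA/I (-0.57, adjusted P = 0.0273). As labelled none of *Mlxip*, *Mlx* and *Mga* passed a test, with the lowest adjusted P at 0.0564, for *Mlx* on PMA/I after withdrawal. Without both misplaced libraries these differences kept their direction and passed the test, apart from *Mlx* with IL-2 after PMA/I (0.88, adjusted P = 0.0743). *Mycl* and *Mlxipl* did not pass the filter, and *Mycs* was listed at 0 in all 12 libraries.

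*Pvt1*, a long non-coding RNA gene on the same strand as *Myc*, starts 47613 bp after its end, at 61869542 on chromosome 15. Its mean levels were 15.9, 25.7, 27.8 and 31.4 TPM in TB IL-2, TB IL-2nil, TB+ IL-2 and TB+ IL-2nil. It passed no test, with a difference of 0.19 (95% interval -0.58 to 0.96) on PMA/I after withdrawal, where *Myc* rose by 6.36, and it passed none as labelled or without both misplaced libraries (lowest adjusted P = 0.0537, for 1.04 on PMA/I with IL-2).

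The genes whose levels were most like those of each member called in a comparison at more than 3-fold were named by Pearson correlation over the 12 libraries on the log2 scale. *Myc* was closest to *Gnl3* (r = 0.994), *Nifk* (0.989) and *Tsr1* (0.988). *Mycn* was closest to *Mrps26* (0.968), *Sfxn1* (0.965) and *Emilin2* (0.963), *Mxd3* to *Sephs1* (0.982), *Hemgn* (0.976) and *Ccnf* (0.972), and *Mxd4* to *Mdp1* (0.989), *Gpatch2l* (0.987) and *Tcf7* (0.983). Within the network *Myc* ran opposite to *Mxd1* (r = -0.84) and *Mxi1* (r = -0.76), and *Mnt* was the only antagonist with a positive coefficient to *Myc* (r = 0.43). The 12 libraries fall into 4 groups, so these coefficients describe the likeness of group patterns.

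The 6 T cell markers were lower with IL-2 in sum, before and after PMA/I, with no overlap between those groups. They summed to 1425 to 1482 TPM in TB IL-2 and 2210.1 to 2414 TPM in TB IL-2nil, and to 1356 to 1512 TPM in TB+ IL-2 and 1805 to 2122 TPM in TB+ IL-2nil. *Cd4* was lower with IL-2 before PMA/I (-1.30, adjusted P = 0.000451), at 134 against 333 TPM, as were *Cd28* (-1.29, adjusted P = 0.00218) and *Cd3d* (-0.93, adjusted P = 0.000776). *Cd4* and *Cd3d* were also lower with IL-2 after PMA/I (-0.82 and -0.61, adjusted P = 0.0103 and 0.0135), and missed the threshold there without both misplaced libraries (adjusted P = 0.0501 for each). The 2 CD8 T cell markers summed to 6.91 to 31.9 TPM, with *Cd8b1* the more abundant, and replicate 1 was the highest of each group, at 31.9, 22.1, 29.5 and 22.0 TPM. Replicate 1 was the lowest of its group in *Myc* in TB IL-2, the highest in TB+ IL-2 and between the other libraries in both groups without IL-2. CD8 T cells lack CD4, against which the cells were selected, and their part in these values was not tested. The 5 myeloid markers summed to 1.74 to 4.88 TPM with *Cd68* the most abundant. The 3 NK cell markers, with *Ncr1* listed at 0 in all libraries, summed to at most 0.303 TPM.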

How the data were processed

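RNA-Seq libraries (rRNA-depleted, directional, paired-end) were processed by the authors with Trimmomatic 0.32, HISAT2 2.1.0 on mm9 and StringTie 1.3.3 on RefSeq models (tools per the submitters' processing notes), and the deposited values are FPKM for 24439 gene names. The methods name TPM, which the planned tests assumed, but the values of a library summed to 193815 to 420487. Values were therefore rescaled to 1000000 TPM per library, the 12442 genes that exceeded 1 TPM somewhere were kept, and 75th percentiles were equalised across libraries. The model, limma 3.58.1 under R 4.3.3 on log2(TPM + 1), had 4 groups and 8 residual degrees of freedom, and was tested on simulated data. A log2 difference understates the change of low genes. A single difference passed the test, and kept or lost its call, at an adjusted P below 0.05 alone, as did genes within lists and the interaction. Counts of genes or network genes called needed a change of over 3-fold as well. Read counts are not known, so no counting intervals are given. Short non-coding RNAs took 16.6% to 53.2% of the FPKM of a library.

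Groups came from the sample labels, with 2 libraries exchanged as described in the report. Libraries with the same replicate number in the labels deviated together from their group means in all 18 pairs of groups and numbers (r = 0.101 to 0.531), so a fit with the number as a block was made beside the unblocked one. The labels do not say what a number shares.

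The network genes and all gene lists were chosen with earlier results of these data known. Named were all network genes, the extended network that passed the filter, the 3 largest called differences of every other list and comparison, the 3 most similar genes of each network gene called at more than 3-fold, and *Il2*, *Cish*, *Cd3e* and *Cd4*. Lists covered MYC targets, cofactors, MYC protein turnover and cell type markers, of which 1 list is not reported here. Gene positions are from GENCODE M1 on mm9. Alternatives were other pseudocounts, filters, scalings, fits and each library left out. Other steps ran in Python 3.11.15 (pandas 2.3.3, numpy 2.4.6, matplotlib 3.10.9).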

Additional observations from a re-analysis of the deposited data

Results flagged for a closer look

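The response of *Myc* to PMA/I differed between cells kept in IL-2 and cells withdrawn from it, by an interaction of -3.73 on the log2 scale (limma, adjusted P = 0.0209). The differences on PMA/I were 2.63 with IL-2 and 6.36 after withdrawal, and *Myc* rose in 3 of 3 stimulated libraries above every unstimulated library in both settings. The interaction missed the threshold without both misplaced libraries (adjusted P = 0.0751), with TPM not normalised further (0.0622) and without 1 library in 6 of 12 cases (0.0502 to 0.0613), and as labelled its adjusted P was 0.914. The cause was not tested.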

How the results depend on the processing

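Of 40 differences (8 network genes in 4 comparisons and the interaction), 20 passed the test at the adjusted P alone. As labelled 1 still did, and without both misplaced libraries 16 did. Over 365 alternatives of these 20 other than the labelled placement, 45 lost the call and 0 changed direction, and 11 differences kept it throughout, namely *Myc*, *Mycn*, *Mxd3* and *Mxd4* for IL-2 before PMA/I, *Myc*, *Mxd1* and *Mxd3* for PMA/I with IL-2, and *Myc*, *Mxd1*, *Mxd3* and *Mxd4* for PMA/I after withdrawal. The cause of the lost calls was not tested. Changes of sign came only among differences that had not passed the threshold. As labelled these were *Max* (0.058) and *Mxd1* (0.31) for IL-2 before PMA/I. Without both libraries they were *Mxd1* for IL-2 before PMA/I (0.12) and *Mxi1* for IL-2 after PMA/I (-0.22). *Mxd1* for IL-2 before PMA/I was 0.0080 with no filter, 0.020 with quantile normalization and 0.052 with median-of-ratios scaling. With quantile normalization *Mxi1* was 0.016 for PMA/I with IL-2 and -0.096 for IL-2 after PMA/I, *Mycn* 0.060 for PMA/I after withdrawal and *Max* 0.00057 for the interaction. With median-of-ratios scaling *Mycn* was 0.0056 for PMA/I after withdrawal and *Mxi1* -0.0038 for IL-2 after PMA/I. With TPM not normalised further *Max* was 0.12 for IL-2 after PMA/I and 0.35 for the interaction. With 1 library left out, *Mxd1* for IL-2 before PMA/I was 0.0078 and 0.12 (without TB IL-2nil replicate 2 or 3), *Mnt* for PMA/I with IL-2 -0.078 to 0.26, *Mycn* for PMA/I after withdrawal -0.11 to 0.0048, *Mxi1* for IL-2 after PMA/I -0.22 to 0.31, with -0.066 without TB+ IL-2nil replicate 1, and *Max* for the interaction -0.23 to 0.065.

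In the order IL-2 before PMA/I, PMA/I with IL-2, PMA/I after withdrawal, IL-2 after PMA/I and interaction, 923, 876, 2296, 451 and 526 genes were called. As labelled these were 12, 44, 255, 15 and 0 by limma (413 for the interaction at an unadjusted P under 0.05), network genes called were 0, 1, 0, 0 and 0, and *Myc* was 1.06, 1.21, 4.95 and -3.73 where its call was lost. The value of -3.73 for the interaction is the same in both placements by construction. At the adjusted P alone 4929, 4372, 7614 and 2644 genes were called, with 6, 6 and 3 network genes from the second comparison on. With a pseudocount of 0.1 genes called were 1470 for PMA/I with IL-2, 3472 for PMA/I after withdrawal, 691 for IL-2 after PMA/I and 241 for the interaction, and network genes 4 for PMA/I after withdrawal and 2 for IL-2 after PMA/I. With TPM not normalised further network genes called were 4 for PMA/I after withdrawal, where the median over all genes was -0.78 against -0.38. They were 0 for IL-2 after PMA/I (3 at an unadjusted P under 0.05), where that median was 0.23 against -0.04. The shares of all genes called with this scaling are not given, so these counts are not read as results about the network. For the interaction 1 gene was called with this scaling, 0 of the network (1 at an unadjusted P under 0.05), with *Myc* at -3.26 (adjusted P = 0.0622). Fitted with only the groups compared, 0 network genes were called for IL-2 after PMA/I (5 at an unadjusted P under 0.05) and *Myc* was -1.26. Without both libraries the interaction called 4 genes, 0 of the network, with *Myc* at -3.93. Array weights gave 842 genes for the interaction. Quantile normalization gave 2 network genes there, with a median over all genes of 0.063 against 0.16. The share of all genes called is not given for it, so this count is not read as a result about the network. With 1 library left out, network genes called for IL-2 after PMA/I ran from 0 to 1, with 0 without TB+ IL-2 replicate 1, TB+ IL-2 replicate 2 or TB+ IL-2nil replicate 3. For the interaction genes called ran from 84 without TB IL-2nil replicate 2 to 1302 without TB+ IL-2nil replicate 3, network genes from 0 to 1 and *Myc* from -4.43 to -3.36. Without TB+ IL-2 replicate 3 they were 105 and 0 with *Myc* at -3.62, and without TB IL-2nil replicate 3 285 genes were called.

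With the replicate block the interaction called 1478 genes and 2 network genes, *Max* passed for PMA/I after withdrawal, and *Mxd3* for IL-2 after PMA/I and the interaction. The block changed no other call of a network gene, and in the list of activated targets 1 gene fell for PMA/I with IL-2 and 1 for IL-2 after PMA/I, where 0 had, and the other counts moved by less than 1.5 times. Beside the other lists stand the counts that it moved by over 1.5 times. Depth differed 3.05-fold between libraries by the rough estimate from low values, and *Mycn* had the lowest level of the network.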

Other observations

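Genes for cofactors of MYC and corepressors of its antagonists were a list of 18 that all passed the filter. Of these, 9 rose and 4 fell with IL-2 before PMA/I, 2 rose and 4 fell on PMA/I with IL-2, 4 rose and 4 fell on PMA/I after withdrawal, and 5 rose and 2 fell with IL-2 after PMA/I. Of all genes 17.3% rose and 22.3% fell in the first of these comparisons, 11.8% and 23.3% in the second, 20.1% and 41.1% in the third and 12.9% and 8.4% in the last. *Ruvbl2* (1.36, adjusted P = 0.00113), an ATPase of chromatin remodelers, *Kat2a* (1.22, adjusted P = 0.000938), a histone acetyltransferase, and *Smarcb1* (1.14, adjusted P = 0.000417), a SWI/SNF subunit, led before PMA/I. On PMA/I with IL-2 *Sin3a*, the corepressor that MXD proteins recruit, fell by 1.07 (adjusted P = 0.000637), *Kat2a* by 0.95 and *Smarcb1* by 0.85. After withdrawal *Wdr5*, a subunit of histone methyltransferase complexes, rose by 1.62 (adjusted P = 9.84e-05), *Ruvbl1*, the partner of *Ruvbl2*, by 1.6 and *Ruvbl2* by 1.10. With IL-2 after PMA/I *Hdac1*, a histone deacetylase, was higher by 0.96 (adjusted P = 0.00207), *Smarcb1* by 0.83 and *Ruvbl2* by 0.76. *Wdr5* was the 1 gene of the list past the test for the interaction (-1.30, adjusted P = 0.0438).

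Of 18 genes for turnover of MYC protein, 7 rose and 3 fell with IL-2 before PMA/I, 3 rose and 6 fell on PMA/I with IL-2, 3 rose and 6 fell after withdrawal, and 3 rose and 1 fell with IL-2 after PMA/I, to be read against the same shares of all genes. *Plk1*, a mitotic kinase, led in all 4 comparisons, at 2.16, -2.37, -2.60 and 2.39 (adjusted P = 0.0141, 0.0099, 0.00279 and 0.0162). *Aurka*, another mitotic kinase, changed by 1.8, -2.16 and -1.96 in the first 3. *Skp2*, a ubiquitin ligase subunit of the cell cycle, was higher with IL-2 before and after PMA/I (1.99 and 1.53), and *C330027C09Rik*, an older symbol for *Cip2a*, an inhibitor of the phosphatase PP2A, was higher with IL-2 after PMA/I (2.16). The ubiquitin ligase gene *Fbxl14* fell by 1.62 on PMA/I with IL-2, and the nucleolar deubiquitinase gene *Usp36* rose by 2.08 after withdrawal (adjusted P = 8.81e-05). *Plk1*, *Aurka* and *Skp2* are also known as genes of dividing cells.

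As labelled, limma called 0 of the cofactor list in the 4 comparisons (5, 5, 3 and 2 at an unadjusted P under 0.05) and 1 of the turnover list, on PMA/I after withdrawal. Without both misplaced libraries 8 cofactor genes rose and 2 fell with IL-2 before PMA/I, 1 rose and 4 fell on PMA/I with IL-2, 3 rose and 4 fell after withdrawal, and 2 rose with IL-2 after PMA/I. In the turnover list these counts were 6 and 3, 3 and 6, 3 and 6, and 1 and 1. On PMA/I after withdrawal 2 cofactor genes rose and 9 fell with TPM not normalised further, and 8 rose and 2 fell with median-of-ratios scaling. In the turnover list these counts were 2 and 10, and 8 and 6. With no filter 7 cofactor and 6 turnover genes rose there. The 7 turnover genes higher with IL-2 before PMA/I were 3 without TB IL-2 replicate 3, 4 without TB IL-2 replicate 2 and 4 with TPM not normalised further, and the 4 cofactor genes that were lower were 2 without TB IL-2 replicate 2, TB IL-2 replicate 3 or TB IL-2nil replicate 2. With TPM not normalised further 6 cofactor genes rose and 0 fell with IL-2 before PMA/I, and with median-of-ratios scaling 2 fell. The 5 cofactor genes higher with IL-2 after PMA/I were 2 or 3 without any 1 library of the comparison other than TB+ IL-2nil replicate 2. The 3 turnover genes higher there were 1 without TB+ IL-2 replicate 3 or TB+ IL-2nil replicate 1. The 2 cofactor genes that rose on PMA/I with IL-2 were 0 or 1 without any 1 library of the comparison, 0 with TPM not normalised further, 1 with quantile normalization and 4 with median-of-ratios scaling, and in the turnover list 1 rose and 4 fell with TPM not normalised further, against 3 and 6. With IL-2 after PMA/I the 2 cofactor genes and the 1 turnover gene that fell were 0 with TPM not normalised further, and 3 cofactor genes rose with median-of-ratios scaling. Fitted with only the groups compared, 3 cofactor genes rose there and 0 fell by limma (2 at an unadjusted P under 0.05). With quantile normalization 4 cofactor genes rose there and 1 fell. With the replicate number as a block 5 turnover genes rose and 3 fell with IL-2 after PMA/I, and 1 was positive and 1 negative for the interaction, where 0 passed by limma without the block (5 at an unadjusted P under 0.05), while 8 rose and 4 fell with IL-2 before PMA/I, 3 and 7 on PMA/I with IL-2, and 4 and 8 after withdrawal. In the cofactor list the blocked counts were 9 and 4, 3 and 5, 5 and 4, and 7 and 3 in the 4 comparisons. The call of *Wdr5* for the interaction was lost with TPM not normalised further, a pseudocount of 0.1 or no filter, without both misplaced libraries, and without 1 library in 10 of 12 cases.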
